A study of Bos grunniens and Bos grunniens x Bos taurus with 12 samples.

Results

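The kinesin and tubulin genes of the testis were followed in yak of 3 ages and in cattle-yak, as ribosome footprints measured by Ribo-seq, in which the fragments of mRNA covered by ribosomes are sequenced and counted per gene. A gene was a member when its symbol began with KIF followed by a digit or C, or with TUBA, TUBB, TUBD, TUBE or TUBG followed only by digits or capital letters. This rule used no measured value and found 48 of the 20965 genes in the tables, 34 kinesins and 14 genes of tubulins and the gamma-tubulin complex. By role lists drawn up for this report, in which a gene with several roles has 1 place, they were 10 mitotic kinesins, 13 transport kinesins, 9 germ-cell and ciliary kinesins, 2 other kinesins, 4 alpha tubulins, 3 beta tubulins, 1 gamma tubulin, 2 delta and epsilon tubulins and 4 gamma-tubulin complex proteins. The samples were testes of male yak (Bos grunniens) aged 6 months (labelled juvenile), 18 months (puberty) and 4 years (sexual maturity), and of cattle-yak aged 4 years (sexual maturity), with 3 libraries per group. The study's methods describe the cattle-yak as offspring of Jersey bulls and Gannan yak cows, a hybrid whose males are sterile. The labels give castration as the way all testes were collected, whereas the methods name euthanasia for the 4-year yak and castration for the cattle-yak. If the methods hold, collection and genotype cannot be told apart in the comparison at 4 years.

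Microtubules are hollow filaments of paired alpha and beta tubulin, nucleated by rings of gamma tubulin. Most kinesins walk along them and carry cargo or slide filaments, and some take them apart from the ends. In the testis, microtubules build the spindles of mitosis and meiosis, the manchette that shapes the spermatid head and the axoneme of the sperm tail, and they organise the long cytoplasm of Sertoli cells. Several tubulin genes and kinesins are used mainly in male germ cells.

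Gene counts summed to between 16304058 and 52616039 per library, with the cattle-yak libraries the deepest 3 and the 4-year yak libraries the shallowest 3. The members held between 0.267% and 0.767% of all counts. Levels are given as FPKM, footprints per kilobase of gene scaled to the depth of the library, which allow comparison between genes. Fold changes come from edgeR's quasi-likelihood test on the counts with TMM scaling, fitted on the whole table. A gene was called when its p-value adjusted by Benjamini-Hochberg over all genes tested was under 0.05 and its log2 fold change was at least 1 in size. The scale matters for yak aged 6 months. With library size alone in place of TMM, the median log2 fold change of all genes in 4-year yak over 6-month yak was 0.64 instead of 0.08, and in cattle-yak over 6-month yak it was 0.52 instead of -0.02, so FPKM places the 6-month libraries lower than the fitted fold changes do.

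The testes differed in markers of germ cells and of other cell types. Markers of elongating spermatids, of which 5 of 9 listed were in the table, summed to 9.12 to 16.8 FPKM at 6 months, 8851 to 12043 FPKM in 4-year yak and 76.1 to 159 FPKM in cattle-yak, where ODF2 alone gave 71.8 to 132 FPKM. Round spermatid markers, 7 of 8, summed to 1.28 to 2.6, 1307 to 1979 and 4.74 to 10.2 FPKM in the same groups, with SUN5 and KLHL10 at 0 in all 6-month libraries. Spermatocyte markers, 8 of 9, summed to 126 to 188, 854 to 935 and 346 to 562 FPKM. HORMAD1 gave most of that sum at 6 months, at 123, 138 and 183 FPKM. PIWIL1 was at 295 to 361 FPKM in 4-year yak and 7.4 to 31.9 FPKM in cattle-yak, whereas SYCP3 was at 59.7 to 78.4 FPKM and 77.9 to 148 FPKM. Spermatogonial markers, 7 of 9, summed to 302 to 447, 605 to 891 and 1268 to 1413 FPKM. Sertoli cell markers, 7 of 9, summed to 6166 to 7611, 627 to 866 and 1158 to 1429 FPKM. Leydig cell markers, 3 of 7, summed to 1689 to 2654, 86.3 to 218 and 672 to 1134 FPKM. Peritubular myoid cell markers, 6 of 6, summed to 141 to 242, 211 to 219 and 781 to 1292 FPKM, so among these groups the sum was highest in cattle-yak. At 18 months it reached 1267 FPKM in replicate 3. ACTA2, TAGLN, MYH11 and MYOCD were each highest in cattle-yak among these groups. DES was at 31.6 to 52.1, 5.82 to 8.27 and 21.3 to 40.4 FPKM, and CNN1 overlapped between 6-month yak and cattle-yak. Macrophage markers, 6 of 7, summed to 303 to 480, 299 to 435 and 156 to 198 FPKM. Of these, AIF1 was at 17 to 41.4, 175 to 220 and 10.8 to 15 FPKM. CD68 was at 8.04 to 11.2, 6.62 to 10.4 and 2.91 to 4.69 FPKM. C1QA, C1QB, CD163 and CSF1R overlapped between 4-year yak and cattle-yak. Endothelial markers, 6 of 6, summed to 29.2 to 39.4, 14.2 to 17.7 and 13.4 to 19.4 FPKM. Of these, VWF was at 1.82 to 2.51, 4.36 to 6.59 and 0.68 to 1.43 FPKM. Between 4-year yak and cattle-yak, VWF and TEK were lower in cattle-yak, CDH5 and EMCN higher, and KDR and PECAM1 overlapped. In whole tissue, fewer cells of a type and less RNA per cell cannot be told apart, and the part of cell numbers in the results was not tested.

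Replicate 2 of the 18-month yak stood apart from the other 2 libraries of its group. Its elongating spermatid markers summed to 7148 FPKM, against 13.7 and 32.2 FPKM in replicates 1 and 3, and its round spermatid markers to 744 FPKM, against 4.85 and 7.34 FPKM. On the log2 scale, 42 of the 48 members in replicate 2 were nearer the mean of 4-year yak than that of 6-month yak, whereas this held for 4 members in replicate 1 and 22 in replicate 3. Counts of calls and fold changes at 18 months are therefore given with and without replicate 2.

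**Figure D1:**
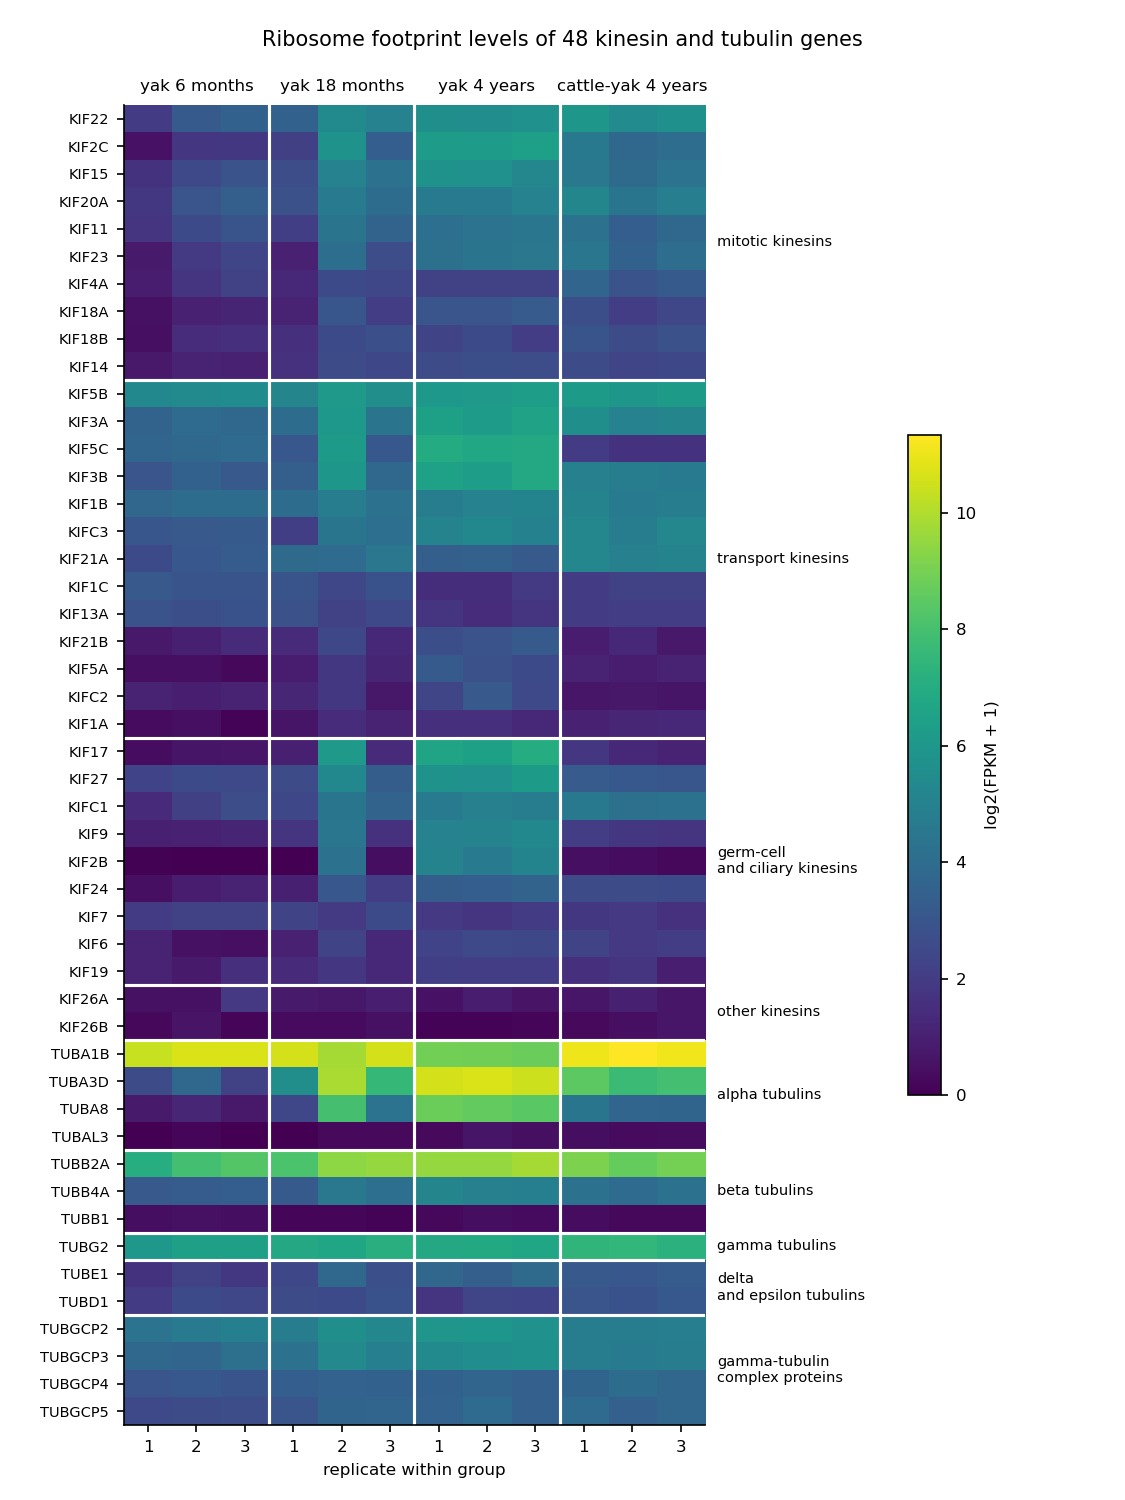
Level of each of the 48 members (rows, grouped by role and ordered by mean level) in each of the 12 libraries (columns, by group and replicate), as log2(FPKM + 1). TUBA1B is the brightest row at 6 months and in cattle-yak, TUBA3D the brightest in 4-year yak, and the column of 18-month replicate 2 resembles those of 4-year yak.

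Between 6 months and 4 years in yak, kinesins and tubulins were mostly higher in the older testis. Of 47 members tested, 29 (61.7%) were called higher and 4 (8.5%) lower, against 31% of all genes called higher and 24.7% called lower. The median log2 fold change was 1.54 over the members and 0.08 over all genes tested. The 4 members called lower were TUBA1B, KIF1C, KIF13A and KIF26B. FPKM values of the groups did not overlap for 37 members in the higher direction and 6 in the lower, against 53.1% and 23.3% of all genes. With library size alone, 34 members were called higher and 4 lower, against 40.9% and 15.5% of all genes, and the share of higher calls among all genes called went from 55.7% to 72.6%.

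In cattle-yak over yak at 4 years, 4 of 48 members (8.3%) were called higher and 14 (29.2%) lower, against 17.1% and 27% of all genes. The share called lower was thus near that of all genes, and the members' median log2 fold change was -0.48 against -0.002 over all genes. The members called higher were TUBA1B, KIF26B, KIF21A and KIF4A. The called members that were lower spanned log2 fold changes from -6.67 for KIF2B to -1.11 for KIF3A. FPKM of the groups did not overlap for 9 members in the higher direction and 25 in the lower, against 34.3% and 36.8% of all genes.

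**Figure D2:**
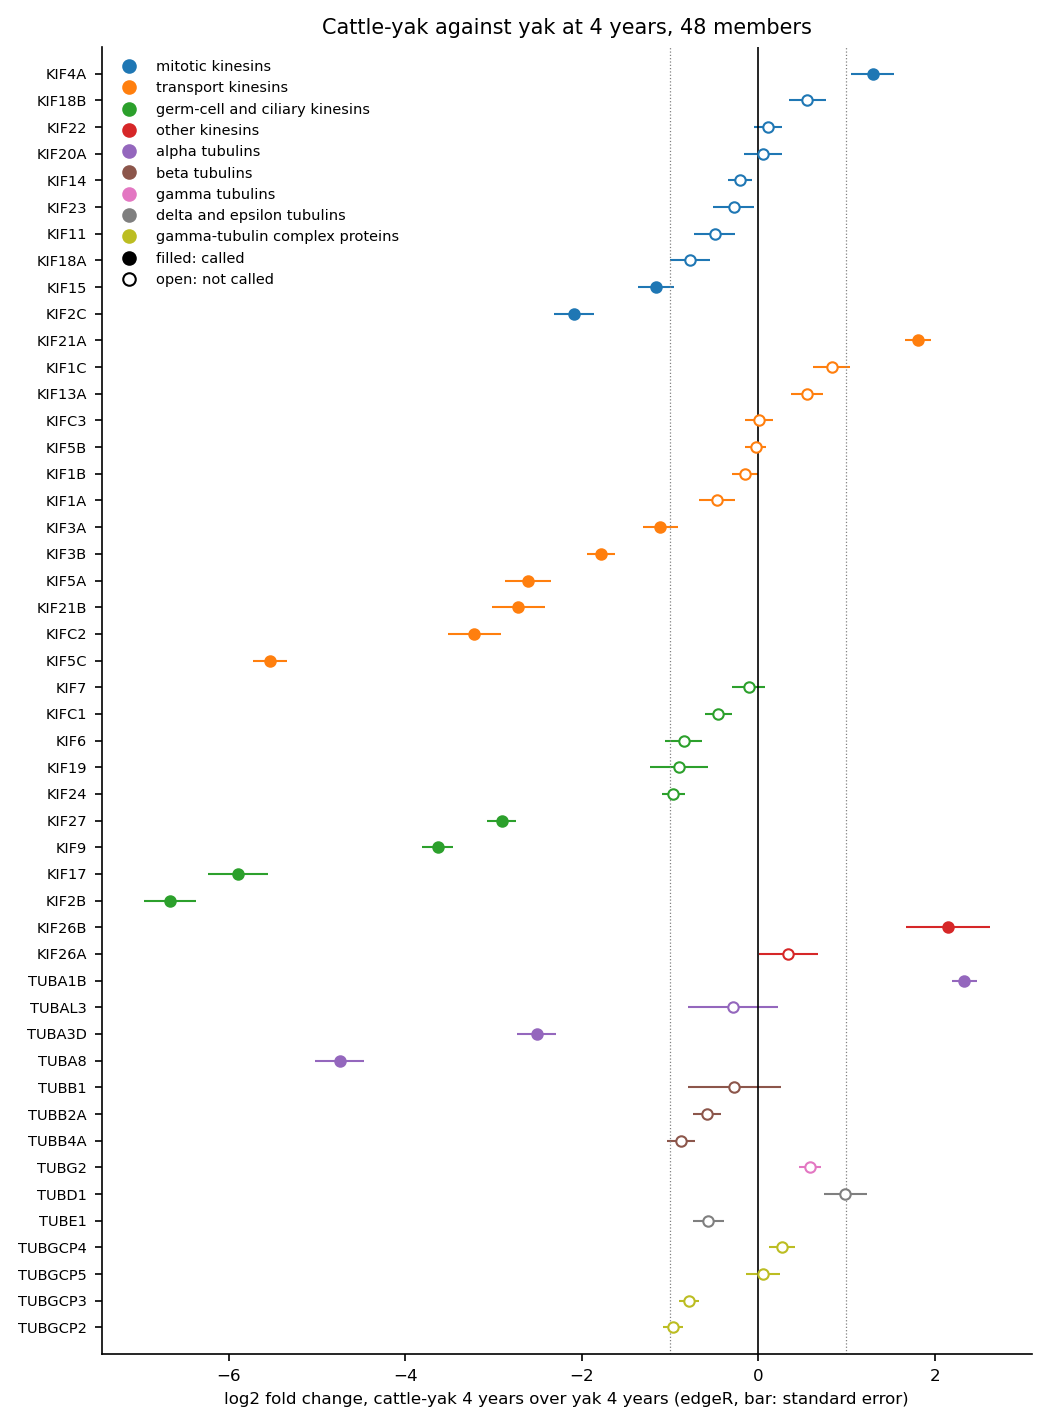
log2 fold change of each of the 48 members in cattle-yak over yak at 4 years (x axis, edgeR, bars are standard errors), coloured by role, with called members filled and dotted lines at 1 and -1. The germ-cell and ciliary kinesins all lie below 0, from -6.67 for KIF2B to -0.11 for KIF7, and the mitotic kinesins spread on both sides of 0, from -2.09 for KIF2C to 1.30 for KIF4A.

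A comparison of cattle-yak aged 4 years with yak aged 6 months was added after values were seen. In it, age and genotype cannot be told apart, and it shares the 6-month libraries with the comparison of yak ages. Of 48 members, 24 (50%) were called higher and 5 (10.4%) lower, against 18.1% and 19.7% of all genes. All 10 mitotic kinesins were among those called higher, and the members called lower were KIF5C, KIF13A, KIF1C, KIFC2 and KIF7. With library size alone, 30 were called higher and 1, KIF5C, lower, against 31.3% and 12% of all genes. Several of the calls near the threshold were lost when 1 library was left out. KIF11 was not called without cattle-yak replicate 1 or 3 or 6-month replicate 1 or 2 (0.74 to 1.06), KIF4A without cattle-yak replicate 1 or 6-month replicate 2 (1.15 and 1.41) and KIF17 without cattle-yak replicate 1 (0.92). KIF3A was not called without cattle-yak replicate 1 (0.80) or 6-month replicate 1 (0.99), and TUBE1 without cattle-yak replicate 3 or 6-month replicate 1 or 3 (0.93 to 0.96). KIF7 was not called without cattle-yak replicate 3 or 6-month replicate 3 (-0.89 and -0.98), and KIF5A was called only in the fit without 6-month replicate 1 among the 6 that left out a library (0.82 to 1.25 in the others). Set against all 9 yak libraries, the 3 cattle-yak libraries were all above in FPKM for TUBA1B, KIF21A, KIF4A and TUBG2 and all below for KIF5C and KIFC2. For the other 42 members they were neither all above nor all below. These positions were not counted over all genes, so whether such numbers are unusual was not tested. They also rest on FPKM, which places the 6-month libraries lower than the fits do.

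No member was called between yak of 6 and 18 months, among 46 tested, where 0.0202% of all genes were called higher and 0.0471% lower. At an unadjusted p under 0.05 there were 21 members, against 25.8% of all genes. DESeq2, run without the low-count filter, called 9 of 48 members higher and 0 lower, against 5.17% and 3.8% of all 20965 genes. Those shares count genes with few or no footprints, so they are not on the base of the filtered fits. Leaving out replicate 1 at 18 months gave 11 members called higher and 1 lower, against 8.7% and 8.08% of all genes, and leaving out replicate 2 gave 0 and 0, against 0.226% and 0.279% of all genes. FPKM of the groups did not overlap for 19 members in the higher direction and 2 in the lower, against 29.7% and 8.05% of all genes. Between yak of 18 months and 4 years, again 0 of 46 members were called, against 0% of all genes higher and 0.0371% lower. There were 13 members at an unadjusted p under 0.05, against 35.4% of all genes. DESeq2 called 5 of 48 members higher and 4 lower, against 6.09% and 9.55% of all 20965 genes. FPKM did not overlap for 26 members in the higher direction and 6 in the lower, against 31% and 23.4% of all genes. Without replicate 2 at 18 months, this comparison called 25 members higher and 5 lower, against 26.1% and 18.5% of all genes. In that fit, KIF17 had a log2 fold change of 6.14 (adjusted p = 1.22e-05), TUBA8 of 4.93 (adjusted p = 0.00052) and KIF5C of 3.68 (adjusted p = 2.16e-05). The members called lower in it were KIF26B, TUBA1B, KIF1C, KIF13A and KIF21A.

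Among the alpha tubulins, the gene with most footprints differed between groups. TUBA1B, a widely used alpha tubulin, was at 1338, 1673 and 1673 FPKM in the 3 libraries of 6-month yak, 1538, 893 and 1551 FPKM at 18 months, 479, 468 and 431 FPKM in 4-year yak and 2105, 2589 and 2217 FPKM in cattle-yak. The 4-year yak were the lowest group and the cattle-yak the highest, with no overlap with any other group. TUBA1B fell between 6 months and 4 years (log2 fold change -2.33, SE 0.193, adjusted p = 7.38e-06) and was 5.05-fold higher in cattle-yak than in 4-year yak (log2 fold change 2.34, SE 0.14, adjusted p = 3.59e-06). Cattle-yak over 6-month yak gave a log2 fold change of 0.03 (SE 0.173) and adjusted p of 0.895, although FPKM of the cattle-yak lay above those of the 6-month libraries.

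TUBA3D, an alpha tubulin known mainly from testis, was at 5.12, 12.6 and 3.65 FPKM at 6 months, 48.3, 947 and 187 FPKM at 18 months, 1580, 1669 and 1436 FPKM in 4-year yak and 357, 213 and 244 FPKM in cattle-yak. No 2 groups overlapped except those of 18 months and cattle-yak. It rose 149-fold between 6 months and 4 years (log2 fold change 7.22, SE 0.498, adjusted p = 2.33e-06) and was 5.69-fold lower in cattle-yak than in 4-year yak (log2 fold change -2.51, SE 0.221, adjusted p = 2.55e-05). Its level in cattle-yak was still 26.4-fold that of 6-month yak (log2 fold change 4.72, SE 0.469, adjusted p = 9.69e-05).

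TUBA8, an alpha tubulin also found in muscle and brain, was at 0.79, 1.31 and 0.73 FPKM at 6 months, 4.35, 254 and 18.9 FPKM at 18 months, 446, 387 and 345 FPKM in 4-year yak and 20, 12.1 and 11.4 FPKM in cattle-yak. It rose 279-fold between 6 months and 4 years (log2 fold change 8.12, SE 0.289, adjusted p = 6.9e-08) and was 26.7-fold lower in cattle-yak at 4 years (log2 fold change -4.74, SE 0.278, adjusted p = 3.3e-06). Between 6 and 18 months the log2 fold changes were 5.37 (SE 1.13, adjusted p = 0.0668) for TUBA3D and 6.17 (SE 1.5, adjusted p = 0.0831) for TUBA8. Without replicate 2 at 18 months they were 3.69 (adjusted p = 0.0515) and 3.25 (adjusted p = 0.0515).

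As a share of all alpha tubulin FPKM, TUBA1B made up 99.5% ± 0.293 (SD, n = 3) at 6 months, 75.9% ± 29.1 at 18 months, 19% ± 0.478 in 4-year yak and 88.8% ± 3.67 in cattle-yak. TUBA3D and TUBA8 together made up 0.509% ± 0.289, 24.1% ± 29.1, 80.9% ± 0.474 and 11.2% ± 3.66. At 18 months their joint share was 3.31% in replicate 1, 57.3% in replicate 2 and 11.7% in replicate 3. The summed alpha tubulin FPKM was 2413 ± 175 in 4-year yak and 2590 ± 195 in cattle-yak (two-sided exact permutation p = 0.6, n = 3 and 3). Groups of 3 cannot give an exact p under 0.1. Among 75 such tests on 15 shares, ratios and sums of members, 67 reached 0.1, and the smallest adjusted p was 0.112. Near-identical alpha tubulin genes can share footprints, so that the split between TUBA1B and its closest relatives is uncertain. With alpha tubulin rows that carry no symbol included, TUBA1B made up 97%, 74.1%, 18.6% and 84.2%.

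**Figure D3:**
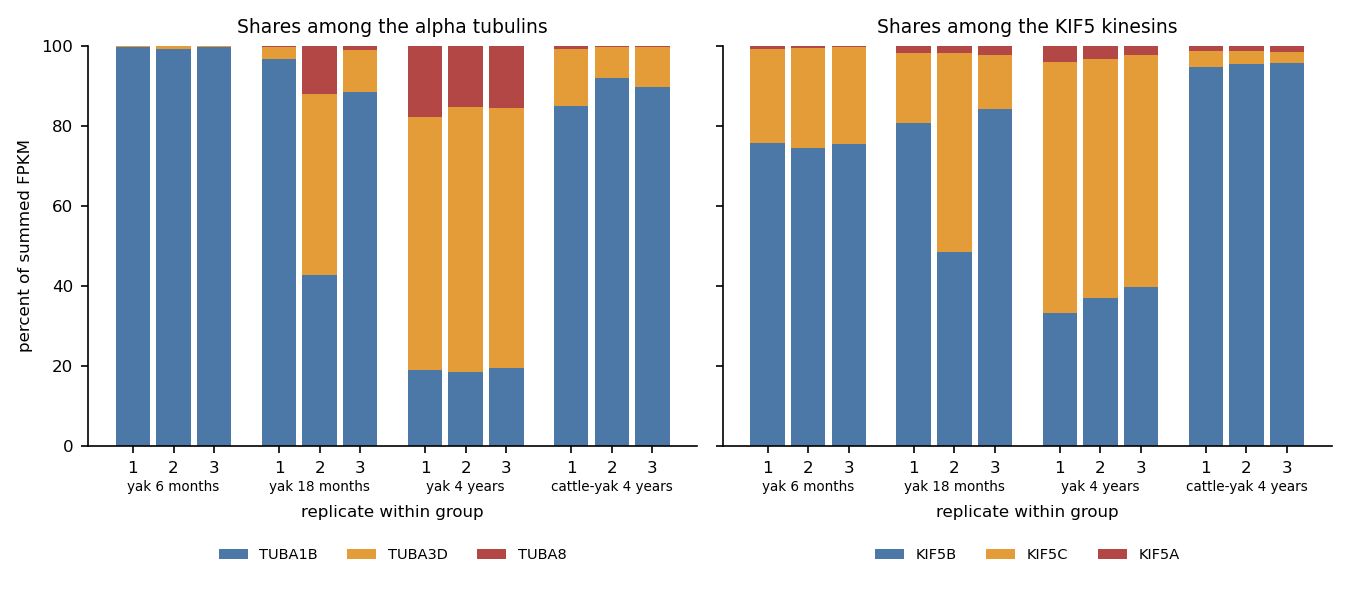
Percent of summed FPKM held by TUBA1B, TUBA3D and TUBA8 among the alpha tubulins (left) and by KIF5B, KIF5C and KIF5A among the KIF5 kinesins (right), 1 bar per library. In 4-year yak TUBA3D and KIF5C hold the largest shares (64.7% and 59.9% on average), whereas TUBA1B and KIF5B hold 88.8% and 95.2% in cattle-yak.

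TUBB2A, a widely used beta tubulin, was at 135, 248 and 312 FPKM at 6 months, 281, 691 and 736 FPKM at 18 months, 755, 738 and 896 FPKM in 4-year yak and 548, 404 and 505 FPKM in cattle-yak. It rose 2.14-fold between 6 months and 4 years (log2 fold change 1.10, SE 0.255, adjusted p = 0.0039), a call lost without replicate 1 at 6 months (log2 fold change 0.87). TUBB4A, a beta tubulin of brain and cilia, rose 2.41-fold over the same interval (adjusted p = 0.000101 by edgeR). Neither was called in cattle-yak over yak at 4 years, where the log2 fold changes were -0.58 (SE 0.156, adjusted p = 0.0109) and -0.88 (SE 0.159, adjusted p = 0.00144) and FPKM of the groups did not overlap. TUBB1, the beta tubulin of platelets, and TUBAL3, an alpha-like tubulin, were at 0.57 FPKM or less in every library.

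TUBG2, a gamma tubulin, was at 64.9, 85.2 and 85.4 FPKM at 6 months, 115, 118 and 104 FPKM in 4-year yak and 170, 180 and 151 FPKM in cattle-yak. For TUBG2, edgeR gave a log2 fold change of -0.05 (SE 0.139) in 4-year over 6-month yak, where FPKM and counts scaled by library size gave positive values, and 0.59 (SE 0.125, adjusted p = 0.00338) in cattle-yak over yak at 4 years. Of the epsilon and delta tubulins of centrioles, TUBE1 rose 2.97-fold between 6 months and 4 years (adjusted p = 0.000324 by edgeR) and TUBD1 was not called (log2 fold change -0.75, SE 0.283). TUBD1 was at 2.38, 4.23 and 3.91 FPKM in 4-year yak and 7, 6.24 and 7.68 FPKM in cattle-yak, with a log2 fold change of 0.99 (SE 0.245, adjusted p = 0.00735), just under the threshold of 1. TUBD1 was called higher in 4 of 8 fits with another setting and in 3 of 6 that left out a library, namely without cattle-yak replicate 2 (1.04) and without 4-year yak replicate 2 (1.26) or 3 (1.07). Of the gamma-tubulin complex proteins, TUBGCP3 was called higher at 4 years than at 6 months (2.22-fold), and none was called by edgeR with TMM between cattle-yak and yak at 4 years. There, the log2 fold changes were -0.96 (SE 0.113) for TUBGCP2 and -0.79 (SE 0.113) for TUBGCP3. TUBGCP2 was called lower by edgeR with RLE factors (-1), limma on log2(FPKM + 1) (-1.09) and limma on log2(FPKM + 0.1) (-1.12).

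Mitotic kinesins were higher in 4-year than in 6-month yak, with 8 of 10 called higher and none lower (median log2 fold change 2.03). The shares of all genes were 31% and 24.7%. In cattle-yak over yak at 4 years, 1 (10%) was called higher and 2 (20%) lower (median -0.24), against 17.1% and 27% of all genes. Their summed FPKM was 32.8 ± 17.6 at 6 months, 119 ± 87.6 at 18 months, 259 ± 7.79 in 4-year yak and 168 ± 40.6 in cattle-yak (SD, n = 3). KIF22, a chromokinesin that binds chromosome arms, was at 3.09, 8.32 and 10.6 FPKM at 6 months, 48.5, 45.7 and 52.2 FPKM in 4-year yak and 62.3, 43.5 and 50.8 FPKM in cattle-yak. It rose 4.58-fold with age (log2 fold change 2.2, SE 0.334, adjusted p = 0.000333) and gave a log2 fold change of 0.11 (SE 0.158, adjusted p = 0.558) in cattle-yak over yak, where the groups overlapped. KIF20A, which works at the spindle midzone and in cytokinesis, likewise rose 2.91-fold with age and had a log2 fold change of 0.06 (SE 0.213) between cattle-yak and yak. KIF11, KIF14, KIF15, KIF18A, KIF23 and KIF2C were the other mitotic kinesins called higher with age, by 2.81-fold for KIF11 to 27.1-fold for KIF2C.

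KIF2C, which takes microtubules apart at kinetochores, was the mitotic kinesin that differed most between the groups. It was at 0.46, 2.46 and 2.63 FPKM at 6 months, 3.4, 56.4 and 9.63 FPKM at 18 months, 72.7, 72.6 and 83.8 FPKM in 4-year yak and 22.7, 12.8 and 15.6 FPKM in cattle-yak. The 3 cattle-yak libraries lay between those of 6-month and 4-year yak with no overlap. KIF2C rose with age (log2 fold change 4.76, SE 0.473, adjusted p = 2.29e-05) and was 4.25-fold lower in cattle-yak than in 4-year yak (log2 fold change -2.09, SE 0.224, adjusted p = 7.61e-05), although, like KIF15, not past the threshold when all 12 libraries entered 1 fit. Its share of mitotic kinesin FPKM was 5.19%, 15%, 29.4% and 10.1% in 6-month, 18-month and 4-year yak and cattle-yak.

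KIF15, a motor that helps KIF11 keep spindle poles apart, was the other mitotic kinesin called lower in cattle-yak, at 55.4, 52.1 and 37.2 FPKM in 4-year yak and 22.5, 14.3 and 19 FPKM in cattle-yak (log2 fold change -1.15, SE 0.206, adjusted p = 0.00133). KIF4A, a chromokinesin that shapes the spindle midzone, went the other way. It was at 0.87, 2.33 and 3.74 FPKM at 6 months, 3.7, 3.53 and 3.7 FPKM in 4-year yak and 12, 6.4 and 8.16 FPKM in cattle-yak. The log2 fold change of KIF4A was 0.12 (SE 0.391, adjusted p = 0.793) between 6 months and 4 years and 1.30 (SE 0.241, adjusted p = 0.00167) in cattle-yak over yak. Each call was lost when a single library was left out. The log2 fold change of KIF15 was -0.99 without cattle-yak replicate 2 and -0.96 without 4-year yak replicate 1, and that of KIF4A was 0.99 without cattle-yak replicate 1. KIF18A, which aligns chromosomes, had a log2 fold change of -0.77 (SE 0.225, adjusted p = 0.0155).

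Transport kinesins were split. Between 6 months and 4 years, 8 of 13 (61.5%) were called higher and 2 (15.4%) lower (median log2 fold change 1.78), against 31% and 24.7% of all genes. In cattle-yak over yak 1 (7.7%) was called higher and 6 (46.2%) lower (median -0.47), against 17.1% and 27% of all genes. KIF5A, KIF5B and KIF5C are the heavy chains of conventional kinesin, of which KIF5B is widely used and KIF5A and KIF5C are best known from neurons. KIF5C was at 12, 13.5 and 14.6 FPKM at 6 months, 7.5, 70.8 and 7.68 FPKM at 18 months, 124, 106 and 113 FPKM in 4-year yak and 2.89, 2.21 and 2.16 FPKM in cattle-yak. The cattle-yak values lay below all 9 yak libraries. KIF5C rose 5.79-fold between 6 months and 4 years (log2 fold change 2.53, SE 0.152, adjusted p = 1.01e-06), was 46.5-fold lower in cattle-yak than in 4-year yak (log2 fold change -5.54, SE 0.192, adjusted p = 4.87e-07) and was also lower than in 6-month yak (log2 fold change -2.99, SE 0.167, adjusted p = 7.73e-06).

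KIF5B, by contrast, was at 38.6, 40.2 and 45.4 FPKM at 6 months, 65.5, 66.3 and 77.9 FPKM in 4-year yak and 71.1, 62.3 and 70.7 FPKM in cattle-yak. The fitted log2 fold change was 0.19 (SE 0.141) with age and -0.03 (SE 0.121, adjusted p = 0.856) in cattle-yak over yak. KIF5C made up 24.2% ± 0.715 of KIF5 FPKM at 6 months, 26.8% ± 19.8 at 18 months, 59.9% ± 2.5 in 4-year yak and 3.38% ± 0.465 in cattle-yak (SD, n = 3). At 18 months this share was 17.4%, 49.6% and 13.6% in replicates 1, 2 and 3. The log2 fold change of KIF5C between 6 and 18 months was 0.69 (SE 0.811), and -1.10 (SE 0.183, adjusted p = 0.0514) without replicate 2. KIF5A, the least abundant of the family, was 13.1-fold higher at 4 years than at 6 months and 6.11-fold lower in cattle-yak (adjusted p = 5.47e-05 by edgeR).

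KIF3A and KIF3B are the motor subunits of kinesin-2, which carries material into cilia and flagella, and KIFAP3 is the subunit that binds them to cargo. KIF3B was at 6.95, 10.4 and 8.07 FPKM at 6 months, 9.71, 63.4 and 13.1 FPKM at 18 months, 90, 78.5 and 113 FPKM in 4-year yak and 29.7, 26.9 and 24.7 FPKM in cattle-yak. KIF3A was at 11.2, 14.6 and 13.4 FPKM at 6 months, 85.5, 74.9 and 91.5 FPKM in 4-year yak and 49.4, 31.5 and 34.3 FPKM in cattle-yak. In both, the cattle-yak lay between 6-month and 4-year yak. They rose 7.5-fold and 4.35-fold with age. In cattle-yak over yak at 4 years, KIF3B had a log2 fold change of -1.78 (SE 0.163, adjusted p = 3.2e-05) and KIF3A of -1.11 (SE 0.196, adjusted p = 0.00127), the latter -0.98 without cattle-yak replicate 2. The FPKM ratio of KIF3A to KIF3B was 1.56 ± 0.132 at 6 months, 0.904 ± 0.083 in 4-year yak and 1.41 ± 0.248 in cattle-yak (SD, n = 3). KIFAP3 had a log2 fold change of 1.85 (SE 0.149) with age and of -1.79 (SE 0.187, adjusted p = 6.57e-05) in cattle-yak over yak.

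KIF21A, a kinesin that restrains microtubule growth, was the transport kinesin called higher in cattle-yak. It was at 4.8, 7.39 and 8.98 FPKM at 6 months, 14.3, 14.8 and 21.7 FPKM at 18 months, 9.78, 10.4 and 8.39 FPKM in 4-year yak and 37.2, 29.3 and 32.9 FPKM in cattle-yak, above every yak library. Its log2 fold change was 1.81 (SE 0.15, adjusted p = 1.83e-05) in cattle-yak over yak and -0.11 (SE 0.197) in 4-year over 6-month yak, where scaling by library size gave 0.44. Its relative KIF21B was 6.58-fold lower in cattle-yak (log2 fold change -2.72, SE 0.297, adjusted p = 8.57e-05). KIFC2, a kinesin of the minus-end-directed group, was at 4.16, 8.01 and 4.67 FPKM in 4-year yak and 0.6, 0.64 and 0.55 FPKM in cattle-yak, 9.29-fold lower (adjusted p = 3.45e-05 by edgeR) and under all yak libraries.

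KIF1C and KIF13A, which move vesicles and endosomes, were the transport kinesins called lower with age. KIF1C was at 7.86, 6.69 and 6.68 FPKM at 6 months, 6.64, 4.33 and 6.32 FPKM at 18 months, 1.78, 1.84 and 2.81 FPKM in 4-year yak and 3.02, 3.76 and 3.76 FPKM in cattle-yak. KIF13A was at 6.52, 5.51 and 6.3 FPKM at 6 months, 2.39, 1.7 and 2.28 FPKM in 4-year yak and 3, 3.13 and 3.18 FPKM in cattle-yak. The log2 fold changes with age were -2.27 (SE 0.207, adjusted p = 1.34e-05) and -2.10 (SE 0.205, adjusted p = 2.07e-05), and neither was called at 4 years in cattle-yak over yak. In cattle-yak over 6-month yak they were -1.42 and -1.52 and called, but not with library size alone (-0.87 and -0.97). KIF26B, an atypical kinesin, fell with age (log2 fold change -2.23, SE 0.614, adjusted p = 0.00943) and was higher in cattle-yak than in 4-year yak (log2 fold change 2.15, SE 0.475, adjusted p = 0.00414), at a level of 0.59 FPKM at most in any library. By limma on log2(FPKM + 1), which shrinks the change of such low genes, neither was called (log2 fold changes -0.21 and 0.35 for KIF26B). By limma on log2(FPKM + 0.1), the fall of KIF26B with age was not called either (log2 fold change -0.84), whereas the call in cattle-yak over 4-year yak was kept.

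The largest rise with age and the largest fall in cattle-yak among the members were both of KIF2B. The role lists, chosen with earlier results known, place KIF2B with the germ-cell and ciliary kinesins and its relative KIF2C with the mitotic ones. The summed FPKM of the germ-cell and ciliary kinesins was 15.7 ± 3.23 at 6 months, 79.1 ± 88.7 at 18 months, 275 ± 39.6 in 4-year yak and 44.6 ± 6.01 in cattle-yak (SD, n = 3). Between 6 months and 4 years 7 of 9 (77.8%) were called higher and none lower (median log2 fold change 3.08), against 31% and 24.7% of all genes. In cattle-yak over yak 4 (44.4%) were called lower and none higher (median -0.96), against 27% and 17.1% of all genes. KIF2B, a microtubule-depolymerising kinesin related to KIF2C, was at 0.04, 0.03 and 0.02 FPKM at 6 months, 0.02, 18.2 and 0.35 FPKM at 18 months, 32.6, 24.6 and 33.2 FPKM in 4-year yak and 0.39, 0.28 and 0.18 FPKM in cattle-yak. All 3 libraries of 4-year yak and replicate 2 at 18 months were high, and every other library was at 0.39 FPKM or less. Over 6-month yak, edgeR called KIF2B higher in 4-year yak (log2 fold change 9.47) and in cattle-yak (2.82, SE 0.696). The 6-month libraries held only 5 counts in all, so the size of these changes is uncertain and a ratio with its counting interval is added. Relative to the library totals, KIF2B was 1125 times as high in 4-year as in 6-month yak (exact 95% interval 482 to 3468). In cattle-yak it was 11.1 times as high as in 6-month yak (4.57 to 35.2). The intervals cover counting error only, and the ratios use no TMM scaling, unlike the fold changes of the other members. In cattle-yak over yak at 4 years it was 102-fold lower (log2 fold change -6.67, SE 0.297, adjusted p = 9.99e-07).

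KIF17, a kinesin-2 motor known in spermatids for moving a transcriptional coactivator out of the nucleus, was at 0.31, 0.54 and 0.63 FPKM at 6 months, 0.99, 67.2 and 1.54 FPKM at 18 months, 97.4, 86.6 and 129 FPKM in 4-year yak and 2.44, 1.47 and 1.14 FPKM in cattle-yak. It rose 142-fold between 6 months and 4 years (log2 fold change 7.15, SE 0.268, adjusted p = 8.57e-08) and was 59.6-fold lower in cattle-yak (log2 fold change -5.90, SE 0.337, adjusted p = 2.95e-06). Between 6 and 18 months its log2 fold change was 5.13 (SE 1.63, adjusted p = 0.122), and 1.07 (adjusted p = 0.183) without replicate 2. KIF9, a kinesin of the sperm flagellum, and KIF27, a kinesin of motile cilia, rose 21.1-fold and 8.92-fold between 6 months and 4 years. In cattle-yak over yak their log2 fold changes were -3.63 (SE 0.175, adjusted p = 1.3e-06) and -2.91 (SE 0.163, adjusted p = 2.71e-06). In cattle-yak over 6-month yak, neither was called by edgeR with TMM, with log2 fold changes of 0.79 (SE 0.239) for KIF9 and 0.27 (SE 0.135) for KIF27. KIF9 was called higher with library size alone (1.32) and by limma on log2(FPKM + 0.1) (1.22).

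The other members of this class differed less between cattle-yak and yak. KIFC1, a minus-end-directed kinesin of spindle poles that also acts in spermatid head shaping, was at 1.63, 3.5 and 5.37 FPKM at 6 months, 25.1, 29.8 and 26.7 FPKM in 4-year yak and 23.3, 17.2 and 18.5 FPKM in cattle-yak. It rose 5.31-fold with age and had a log2 fold change of -0.45 (SE 0.155, adjusted p = 0.0312) in cattle-yak over yak. KIF24, which trims centriolar microtubules, rose 8.44-fold with age and had a log2 fold change of -0.96 (SE 0.13, adjusted p = 0.000286) in cattle-yak over yak, just short of the threshold in size. KIF7, a Hedgehog signalling kinesin of the primary cilium, was at 2.91, 3.6 and 3.66 FPKM at 6 months and 2.71, 2.38 and 2.88 FPKM in 4-year yak, with a log2 fold change of -0.91 (SE 0.172, adjusted p = 0.0012). It was called lower in cattle-yak than in 6-month yak (log2 fold change -1.01), a call that 9 of the 14 other fits tried did not keep.

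**Figure D4:**
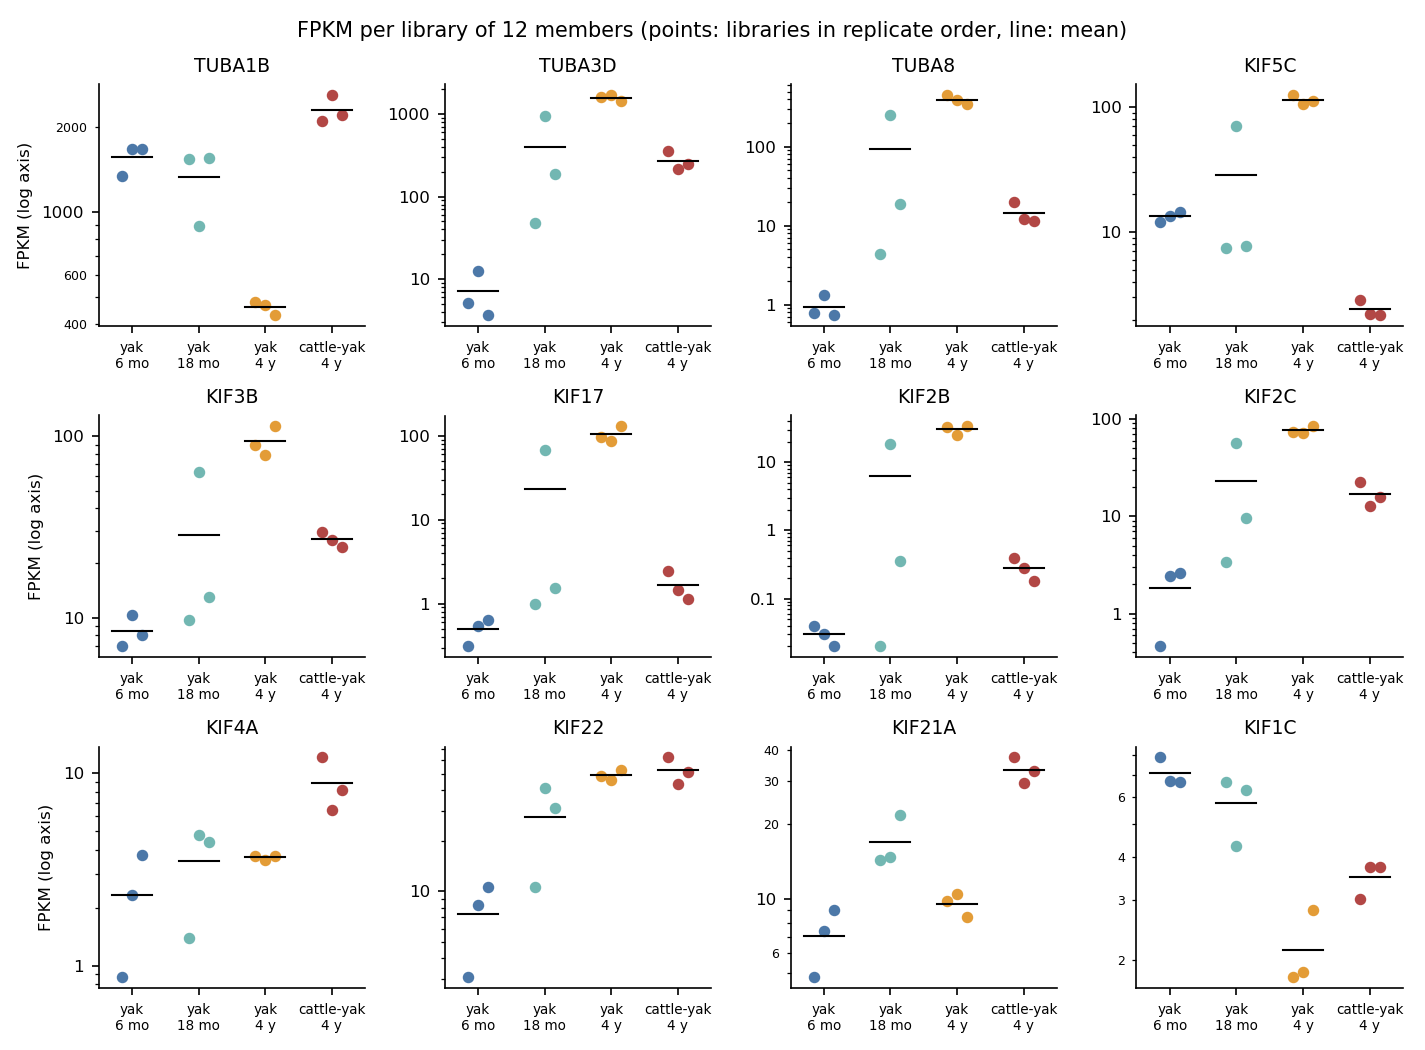
FPKM on a log axis of 12 members in each library (points, in replicate order within each group) with the mean of each group (line). KIF17, KIF2B, TUBA8 and KIF5C are high in 4-year yak and in 18-month replicate 2, KIF22 is at like levels in both groups of 4 years, and TUBA1B, KIF4A and KIF21A are highest in cattle-yak.

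Other genes that act on microtubules were taken from lists by role. Over all genes tested, 31% were called higher and 24.7% lower between 6 months and 4 years. In cattle-yak over yak at 4 years, 17.1% were called higher and 27% lower. Of 25 tubulin-modifying enzymes tested, 16 (64%) were called higher and 5 (20%) lower between 6 months and 4 years (median 2.52). In cattle-yak over yak at 4 years, 2 enzymes (8%) were called higher and 15 (60%) lower (median -1.64). TTLL5 and AGBL5, which add glutamate chains to tubulin and remove them, had log2 fold changes of -2.82 (SE 0.14) and -3.52 (SE 0.125) in cattle-yak over yak. TTL, which restores the terminal tyrosine of alpha tubulin, was called lower with age (log2 fold change -3.14, SE 0.295) and higher in cattle-yak than in 4-year yak (1.48, SE 0.345). Of 11 genes of the manchette and the sperm axoneme, 10 were called higher and 1, CEP131, lower with age, and 10 lower and 1, CEP131, higher in cattle-yak (median -5.98). HOOK1, a manchette protein, was among those lower, with a log2 fold change of -2.32 (SE 0.188, adjusted p = 1.64e-05).

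Spindle and midzone partners were called higher in 13 of 15 with age (86.7%, against 31% of all genes). In cattle-yak over yak, 4 of the 15 were called lower (26.7%, against 27% of all genes). Only 1, TPX2, was called higher (log2 fold change 1.17, SE 0.184), 6.7% against 17.1% of all genes. PLK1, a mitotic kinase, was among those lower (-2.16, SE 0.18). Of 5 kinesins outside the symbol rule and kinesin partners, CENPE, KIFAP3 and KLC3 were called higher with age and lower in cattle-yak. KLC3, a kinesin light chain of spermatids, had a log2 fold change of -1.66 (SE 0.182, adjusted p = 8.81e-05) in cattle-yak over yak. Of 17 genes of microtubule dynamics and severing, 7 (41.2%) were called higher and 1 (5.9%) lower with age, against 31% and 24.7% of all genes. In cattle-yak over yak, 2 of them (11.8%) were called higher and 4 (23.5%) lower, against 17.1% and 27% of all genes. Of 4 tubulin folding cofactors, TBCC was called in cattle-yak over yak, higher with a log2 fold change of 1.53 (SE 0.123), and TBCA was called lower with age.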

How the data were processed

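Ribo-seq libraries of 12 testes, 3 per group, were analysed. The labels name separate animals per group, so p-values measure the spread between animals. The authors filtered the reads, discarded reads of rRNA (Bowtie2) and of other short non-coding RNAs, aligned the footprints to the yak genome and counted reads in open reading frames with RSEM; these steps are described for the 4-year groups and taken to hold for all. Cattle-yak reads were aligned to the yak genome too, and the effect of this on cattle alleles was not tested. The deposited expected counts (whole numbers) and FPKM values were read from 3 comparison tables. Columns repeated between tables were identical in 12 of 12 cases. Tables of fold changes and p-values by the authors were not used.

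Counts were tested with edgeR 4.0.16 (filterByExpr, TMM, glmQLFit and glmQLFTest) in R 4.3.3 on the 6 libraries of each comparison. The SE was derived as |log2 fold change| over √F. The thresholds are those of the study. DESeq2 1.42.0 and limma 3.58.1 served as alternatives, and the edgeR script was tested on simulated data. Members, role lists, marker lists and the rule for named genes (2 per role class with the highest mean FPKM, the 4 largest rises and falls called without overlap, and members called against most of their class) were chosen with earlier results of these data known. Further members are named with the report's reading of their roles. The comparison of cattle-yak with 6-month yak was added after values were seen. Replicates of a group differed beyond sampling noise (chi-square per degree of freedom 27.7 to 354). KIF and TUB symbols that no row carries were looked at only through rows without a symbol whose description names such a gene. No genomic positions or sequences were used here.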

Additional observations from a re-analysis of the deposited data

How the results depend on the processing

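Calls in 4-year over 6-month yak and in cattle-yak over 4-year yak kept within 1.5 times of the main count under every alternative tried. Between 6 and 18 months, 0 members were called higher; DESeq2 gave 9, limma on log2(FPKM + 0.1) 1, the replicate block 2, all 12 libraries in 1 fit 14, and leaving out 1 library 0 to 11. For lower calls these were 1 with all 12 libraries and 0 to 1 leaving out 1 library. Between 18 months and 4 years, 0 were called in either direction; DESeq2 gave 5 higher and 4 lower, all 12 libraries 6 and 4, and leaving out 1 library 0 to 25 and 0 to 5, the upper ends without 18-month replicate 2. The cause was not tested. In cattle-yak over 6-month yak, 5 were called lower, but 1 with library size alone and 1 with limma on log2(FPKM + 1) or log2(FPKM + 0.1). Replicate numbers did not pair samples (correlations of deviations from -0.153 to 0.0991), and the replicate block moved no other count by over 1.5 times.

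No called member changed sign. Among uncalled members near 0, the log2 fold change of KIF5C between 6 and 18 months became -0.17 with the replicate block and -1.10 without 18-month replicate 2. In 4-year over 6-month yak, KIF21A became 0.44 with library size alone, 0.42 and 0.47 with limma on log2(FPKM + 1) and log2(FPKM + 0.1); TUBG2 became 0.03 with DESeq2 and with RLE factors, 0.52 with library size alone and 0.52 and 0.53 with limma. Leaving out 1 library gave KIF5C -1.10 to 1.13, KIF21A -0.28 to 0.06, KIF4A -0.24 to 0.61 and TUBG2 -0.10 to 0.01. In cattle-yak over 4-year yak, KIF5B became 0 with no filter on low counts, and leaving out 1 library gave KIF20A -0.18 to 0.25, KIF22 -0.05 to 0.24 and KIF5B -0.08 to 0.11. In cattle-yak over 6-month yak the range of TUBA1B was -0.06 to 0.1.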

Other observations

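Some genes of the same families carry no symbol in the tables and fall outside the symbol rule. By their descriptions, 19 such rows were kinesin motors or tubulins (12 and 7), of which 12 had a mean of at least 1 FPKM in some group. They were picked by description after values were seen, and near-identical tubulin genes can share footprints. In cattle-yak over 4-year yak, 6 of the 19 rows were called higher and 2 lower, whereas 4 of the 48 members were called higher and 14 lower. The shares of all genes tested were 17.1% and 27%. In 4-year over 6-month yak, 4 rows were called higher and 4 lower, against 31% and 24.7% of all genes tested. A row described as tubulin beta-3 chain (ENSBGRG00000024423) was at 12, 19.2 and 20.4 FPKM in 6-month yak, 17.9, 108 and 71.6 FPKM at 18 months, 185, 236 and 179 FPKM in 4-year yak and 813, 858 and 765 FPKM in cattle-yak. The cattle-yak libraries were above all 9 yak libraries, with a log2 fold change of 2.03 over 4-year yak and of 5.04 over 6-month yak. A row described as tubulin beta chain (ENSBGRG00000008599) was at 502, 601 and 661 FPKM at 6 months, 149, 164 and 142 FPKM in 4-year yak and 669, 699 and 609 FPKM in cattle-yak. It fell with age (log2 fold change -2.52) and was higher in cattle-yak than in 4-year yak (2.13), as TUBA1B was.

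A row described as tubulin alpha-1C chain (ENSBGRG00000001528) was at 54.5, 57.9 and 63.3 FPKM in 4-year yak and 115, 126 and 133 FPKM in cattle-yak (log2 fold change 1.11). A row described as tubulin alpha-1A chain-like (ENSBGRG00000000751) was at 0.16 FPKM or less in all 9 yak libraries and at 14.5, 19.2 and 17.8 FPKM in the 3 cattle-yak libraries. Reads of the cattle-yak were aligned to the yak genome, and the part of alignment in this difference was not tested. A row described as a partial KIF25 (ENSBGRG00000009164) was at 20.5, 17.5 and 11.3 FPKM in 4-year yak, 5.77 FPKM in 18-month replicate 2 and 0.48 FPKM or less in the other 8 libraries. Its log2 fold change was -5.57 in cattle-yak over 4-year yak. A row described as KIF19 (ENSBGRG00000023972) was at 2.08, 1.84 and 1.51 FPKM in 4-year yak and 0.29, 0.05 and 0.19 FPKM in cattle-yak. It was called lower there (log2 fold change -3.27), whereas the member KIF19 was not called (-0.90). A row described as KIF13B (ENSBGRG00000002206), a transport kinesin, had a log2 fold change of -1.01 with age and of 1.06 in cattle-yak over 4-year yak.

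Over the 12 libraries and 14570 genes with a mean of at least 1 FPKM, the genes whose log2(FPKM + 1) was most like that of KIF2B were C12orf50, PCDHB1 and PDZD9 (Pearson r = 0.9995, 0.9994 and 0.999). Those most like TUBA1B were NAA10 (r = 0.997), APEX2 (r = 0.994) and PRDX2 (r = 0.993). The libraries form 4 groups, so these values mostly describe differences between groups.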
